A study of Homo sapiens with 6 samples.

Results

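A set of 7 genes of the cellular machinery for double-stranded RNA were examined in PC9 cells after knockdown of RBM10, an RNA-binding protein that regulates splicing. The members were given by name: DDX58 (which encodes RIG-I), IFIH1 (MDA5), DHX58 (LGP2), MAVS, TLR3, EIF2AK2 (PKR) and ADAR (ADAR1). The deposited table of 16306 genes held all 7, and all 7 passed the filter on low counts that left 12620 genes for testing. PC9 is a human lung adenocarcinoma line that carries an activating deletion in EGFR. RNA was sequenced from 3 samples with a control shRNA (sh-NC, replicates 1 to 3) and 3 with an shRNA against RBM10 (shRBM10), and the labels give no drug, dose or time. The shRBM10 libraries are called A, B and C, because the column names match a sample title only for A. The labels do not say which shRNA each received, or whether replicates came from separate cultures, so p-values measure the spread between these libraries, which may be technical. The question was which sensors stood with the interferon-stimulated genes in shRBM10 and which did not.

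RIG-I and MDA5 are helicases of the cytoplasm that bind double-stranded RNA, change shape and engage MAVS, an adaptor on mitochondria, which starts the transcription of interferons and cytokines. LGP2 is a related helicase without the signaling domains and tunes both of them. TLR3 reads double-stranded RNA in endosomes through the adaptor TICAM1, and PKR is a kinase that stops translation by phosphorylating eIF2 alpha once it has bound such RNA. ADAR1 edits adenosine to inosine in double-stranded RNA, which marks the cell's own transcripts as self. Interferon is known to raise transcription of several of these genes through interferon-stimulated response elements, so they act both upstream and downstream of interferon.

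The start regions of the genes are shown because these elements lie there. The RefSeq windows (GRCh38.p14, 250 bases before to 50 after a start) held 6 of the 7 members; DHX58 had none. The core letters of such an element, GAAANNGAAA, and the form with a shorter gap, GAAANGAAA, were searched on both strands. Matches on the printed strand or its complement are in capitals. A match is a description of the letters, not a site shown to be bound.

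DDX58: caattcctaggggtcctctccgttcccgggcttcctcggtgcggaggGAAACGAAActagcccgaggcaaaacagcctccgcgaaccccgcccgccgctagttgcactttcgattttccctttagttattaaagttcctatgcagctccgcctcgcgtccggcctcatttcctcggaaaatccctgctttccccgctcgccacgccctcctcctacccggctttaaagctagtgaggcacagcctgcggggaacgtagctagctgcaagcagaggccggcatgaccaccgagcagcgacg

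IFIH1: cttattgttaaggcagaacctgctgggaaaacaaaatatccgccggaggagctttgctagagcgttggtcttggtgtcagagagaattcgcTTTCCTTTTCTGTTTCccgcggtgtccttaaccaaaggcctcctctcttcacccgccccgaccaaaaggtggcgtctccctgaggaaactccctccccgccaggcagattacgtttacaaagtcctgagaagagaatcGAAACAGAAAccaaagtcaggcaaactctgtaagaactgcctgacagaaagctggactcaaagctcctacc

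TLR3: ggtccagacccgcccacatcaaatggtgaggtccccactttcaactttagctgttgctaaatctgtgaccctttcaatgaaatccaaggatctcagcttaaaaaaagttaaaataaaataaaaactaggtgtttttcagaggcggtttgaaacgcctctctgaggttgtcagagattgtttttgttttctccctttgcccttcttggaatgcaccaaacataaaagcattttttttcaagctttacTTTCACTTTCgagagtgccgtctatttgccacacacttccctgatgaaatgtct

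EIF2AK2: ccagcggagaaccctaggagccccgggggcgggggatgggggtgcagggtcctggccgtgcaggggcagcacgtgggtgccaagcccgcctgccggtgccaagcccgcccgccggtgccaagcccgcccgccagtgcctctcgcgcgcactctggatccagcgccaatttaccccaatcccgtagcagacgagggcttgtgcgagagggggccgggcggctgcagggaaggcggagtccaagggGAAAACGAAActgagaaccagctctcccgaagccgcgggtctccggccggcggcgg

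MAVS: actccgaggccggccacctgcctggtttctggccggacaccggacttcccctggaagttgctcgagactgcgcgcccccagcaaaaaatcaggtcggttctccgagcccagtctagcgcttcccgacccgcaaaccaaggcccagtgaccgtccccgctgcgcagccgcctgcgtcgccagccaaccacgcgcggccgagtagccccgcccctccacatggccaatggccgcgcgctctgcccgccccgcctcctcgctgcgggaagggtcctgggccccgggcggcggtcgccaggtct

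The DDX58 window (chr9:32526147-32526446, minus strand) held the short-gap form, 203 bases before the start. The IFIH1 window (chr2:162318635-162318934, minus strand) held GAAANNGAAA 21 bases before the start and a pair of overlapping matches on the other strand, which begin 159 and 153 bases before it. In TLR3 (chr4:186068906-186069205, plus strand) a match on the other strand began 4 bases before the start, and in EIF2AK2 (chr2:37156931-37157230, minus strand) a match began 6 bases before it. The MAVS window (chr20:3846584-3846883, plus strand) held neither form, and nor did any of the ADAR windows, none of which begins at the start of its interferon-inducible form. For comparison, 3.57% of the 35116 windows of all genes held GAAANNGAAA, 3.12% held GAAANGAAA and 6.40% held at least 1 of them. Among 42 genes of a list of interferon-stimulated genes with a window, 36 (85.7%) held at least 1.

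The 6 libraries held 16606401 to 18864241 counts each. RBM10 itself (Entrez 8241, chrX:47144869-47186813, gene coordinates from GENCODE 29 on GRCh38) had 77.9, 64.4 and 80.0 CPM (counts relative to the TMM-scaled library size) in sh-NC and 29.2, 28.0 and 36.6 in shRBM10. Its log2 fold change was −1.24 (SE 0.23, edgeR adjusted p = 0.10), and no shRBM10 library reached the lowest sh-NC library. sh-NC replicate 2 stood apart, with a TMM factor of 0.74 against 1.03 to 1.08 elsewhere and a median of 120 counts per detected gene against 220 to 269. The libraries also differed in how counts fell with GC content. The median level of genes at or under 42.1% GC minus that of genes at or above 57.0% (log2, each gene centred on its mean) was −0.31, −0.83 and −0.34 in sh-NC and 1.17, 0.71 and −0.34 in shRBM10. Because the sensors span 37.6% to 58.2% GC, each is also given with a GC trend per library removed, and in library C beside sh-NC replicates 1 and 3, whose trends were alike. The part of GC content in the results was not tested otherwise. All 8 epithelial markers (EPCAM, CDH1, keratins and others) were above 1 CPM, and CRX, PDE6B and RLBP1 of the retina, a tissue that the extraction text mentions, were under 0.1 CPM. NRL and RBPMS of the same list were above 1 CPM, and the summed retina markers lay between 15.9 and 22.7 CPM in sh-NC and between 14.3 and 19.4 in shRBM10. Summed leukocyte markers lay between 156 and 225 CPM in sh-NC and 162 and 218 in shRBM10, with CD14, CD68 and CSF1R above 1 CPM, and fibroblast and endothelial markers between 8.64 and 17.0 and between 8.60 and 14.6.

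The sensors differed widely in shRBM10. The 3 receptors that bind RNA and start signaling, RIG-I, MDA5 and TLR3, were 5.32-fold, 4.91-fold and 3.18-fold higher in the edgeR fit. PKR was 2.03-fold higher and ADAR1 1.35-fold higher. The adaptor MAVS was at 0.82-fold and the regulator LGP2 at 0.96-fold. In bulk RNA, more cells expressing a gene and more RNA per cell cannot be told apart. After adjustment over all genes, edgeR's quasi-likelihood test called 0 of the 7 at an adjusted p under 0.05 and a log2 fold change beyond 1, where it called 0.0158% of all genes (2 genes). At an unadjusted p under 0.05 and the same fold it counted 4 of 7 higher, against 10.1% of all genes, and 0 of 7 lower, against 1.53%. DESeq2 called DDX58, IFIH1 and TLR3 higher (3 of 7), against 3.64% of all genes with an adjusted p. Without sh-NC replicate 2 the log2 fold changes of these 3 in edgeR were 2.01, 1.83 and 1.32.

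RIG-I had the largest fold change of the 7 in the fit of all 6 libraries. DDX58 (Entrez 23586, chr9:32455705-32526324, minus strand) had 213, 62 and 246 counts in the sh-NC libraries and 1363, 928 and 402 in libraries A, B and C. These were 10.5, 4.62 and 12.1 CPM against 76.2, 48.4 and 21.0 CPM. The lowest shRBM10 library, C, was still 1.74-fold above the highest sh-NC library, and the spread within shRBM10 was wide. The log2 fold change was 2.41 (SE 0.50, unadjusted p = 0.00073, edgeR adjusted p = 0.120; DESeq2 adjusted p = 0.00012). Of the genes tested, 0.15% had a higher one. With the GC trend removed it was 1.73 (SE 0.35, edgeR adjusted p = 0.119), and the genes of its GC range, 40% to 44%, had a median of 0.60 without that step.

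MDA5 was also highest in library A and lowest in C. IFIH1 (Entrez 64135, chr2:162267079-162318703, minus strand) had 176, 30 and 140 counts in the sh-NC libraries and 690, 632 and 319 after knockdown, or 8.69, 2.24 and 6.88 CPM against 38.6, 33.0 and 16.7 CPM. Every shRBM10 library was at least 1.92-fold above the highest sh-NC library. The log2 fold change was 2.30 (SE 0.50, unadjusted p = 0.0010, edgeR adjusted p = 0.128; DESeq2 adjusted p = 0.00034), and 1.82 (SE 0.42) with the GC trend removed. Of the 7 sensors IFIH1 was the least reduced by that step among those more than 2-fold higher.

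TLR3 (Entrez 7098, chr4:186069152-186088069, plus strand) was the scarcest sensor and the third with separate groups. It had 47, 14 and 43 counts in the sh-NC libraries and 138, 124 and 67 in A, B and C, or 2.32, 1.04 and 2.11 CPM against 7.71, 6.47 and 3.50 CPM. Its log2 fold change was 1.67 (SE 0.41, unadjusted p = 0.0025, edgeR adjusted p = 0.142; DESeq2 adjusted p = 0.015). TLR3 has the lowest GC content of the 7, at 37.6%, and the genes of its range (36% to 40%) had a median log2 fold change of 0.77. With the GC trend removed the value was 0.95 (SE 0.23, edgeR adjusted p = 0.146). On that scale the groups still did not overlap, at 2.79, 1.76 and 2.61 CPM against 4.60, 4.74 and 4.26 CPM.

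For PKR the result turned on which libraries were compared. EIF2AK2 (Entrez 5610, chr2:37099210-37157065, minus strand) had 955, 243 and 867 counts in the sh-NC libraries and 1740, 1503 and 831 in the knockdown libraries. In CPM these were 47.1, 18.1 and 42.6 against 97.2, 78.4 and 43.4. Library C lay between the sh-NC replicates, so the groups overlapped. The log2 fold change was 1.02 (SE 0.40, unadjusted p = 0.029, edgeR adjusted p = 0.177), 0.61 without sh-NC replicate 2 and 0.35 (SE 0.26, edgeR adjusted p = 0.467) with the GC trend removed. The genes of its GC range, the same as for TLR3, had a median of 0.77. The annotation places GPATCH11, on the other strand, over its 3′ end and a pseudogene within it, together 810 bases, and whether the counting used strand is not given in the sources used here.

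ADAR1, the editor, was high in both groups. ADAR (Entrez 103, chr1:154582057-154628013, minus strand) had 219, 130 and 227 CPM in sh-NC and 261, 238 and 280 CPM in shRBM10. All shRBM10 libraries were higher, by as little as 1.05-fold between the closest libraries, and the widest gap was to sh-NC replicate 2. The log2 fold change of 0.44 (SE 0.26, edgeR adjusted p = 0.306) became 0.14 without that replicate, and it was 0.40 (SE 0.24) with the GC trend removed.

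The adaptor and the regulator were not higher in the fit of all 6 libraries. MAVS (Entrez 57506, chr20:3846799-3876123, plus strand) had 288, 287 and 298 CPM in sh-NC, a narrow range, and 260, 186 and 268 CPM in shRBM10. All 3 shRBM10 libraries were lower, B by the most. The log2 fold change was −0.29 (SE 0.23, edgeR adjusted p = 0.428) and −0.19 (SE 0.18) with the GC trend removed, where the groups overlapped. DHX58 (Entrez 79132, chr17:42101404-42112733, minus strand) had 21.2, 23.6 and 21.1 CPM in sh-NC and 18.0, 19.7 and 25.2 CPM in shRBM10. Its log2 fold change was −0.06 (SE 0.25, edgeR adjusted p = 0.880), with library C above and libraries A and B below all sh-NC replicates. The sign was positive under library-size scaling (0.07) and with the GC trend removed (0.19, SE 0.15, edgeR adjusted p = 0.479), where the shRBM10 libraries, at 22.5, 23.1 and 23.9 CPM, were all above the sh-NC libraries, at 20.2, 20.9 and 19.97 CPM. DHX58 has the highest GC content of the 7, at 58.2%, and genes of 56% to 60% had a median of −0.29.

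Over the 7 sensors, 4 (DDX58, IFIH1, TLR3 and ADAR) were higher in every shRBM10 library than in any sh-NC library, against 13.8% of all genes, and 1 (MAVS) was lower, against 16.2%. With the GC trend removed 5 (DHX58 in addition) were higher, against 14.0%, and none was lower. The exact permutation test of the mean CPM gave p = 0.1 for each of the 5 that did not overlap, the smallest value that 3 against 3 libraries allow (two-sided), 0.2 for EIF2AK2 and 0.8 for DHX58. At an unadjusted p under 0.05 and a fold beyond the limit, the fit with the GC trend removed kept DDX58 and IFIH1 (2 of 7, against 2.43% of all genes). The same fit without sh-NC replicate 2, added after seeing the data, called both after adjustment (adjusted p = 0.026 and 0.015, against 1.30% of all genes). In that fit TLR3, at a log2 fold change of 0.80, stayed under the limit on fold (edgeR adjusted p = 0.043).

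The interferon-stimulated genes give the scale for these values. A list of 52 such genes, with the sensors left out, was tested whole. In shRBM10 51 of 52 had a log2 fold change above 0, with a median of 0.90 (quartiles 0.42 and 1.78), beside a median of 0.03 over all 12620 genes. The median deviation of the list from the sh-NC mean was −0.01, 0.14 and −0.11 (log2) in the sh-NC libraries and 1.02, 1.03 and 0.90 in libraries A, B and C. The median was nearly the same in the 3 shRBM10 libraries. DDX58, IFIH1, TLR3 and EIF2AK2 were each highest in A and lowest in C, as were 19 of the 52 list genes and 34.7% of all genes tested, while 25 of the 52 were higher in C than in A. DDX58 and IFIH1 each exceeded 46 of the 52 genes, TLR3 35, EIF2AK2 27, ADAR 13, DHX58 1 and MAVS 0. With the GC trend removed the list's median was 0.92, and the numbers exceeded became 45 for DDX58, 46 for IFIH1, 27 for TLR3, 9 for EIF2AK2, 11 for ADAR, 4 for DHX58 and 1 for MAVS.

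**Figure D1:**
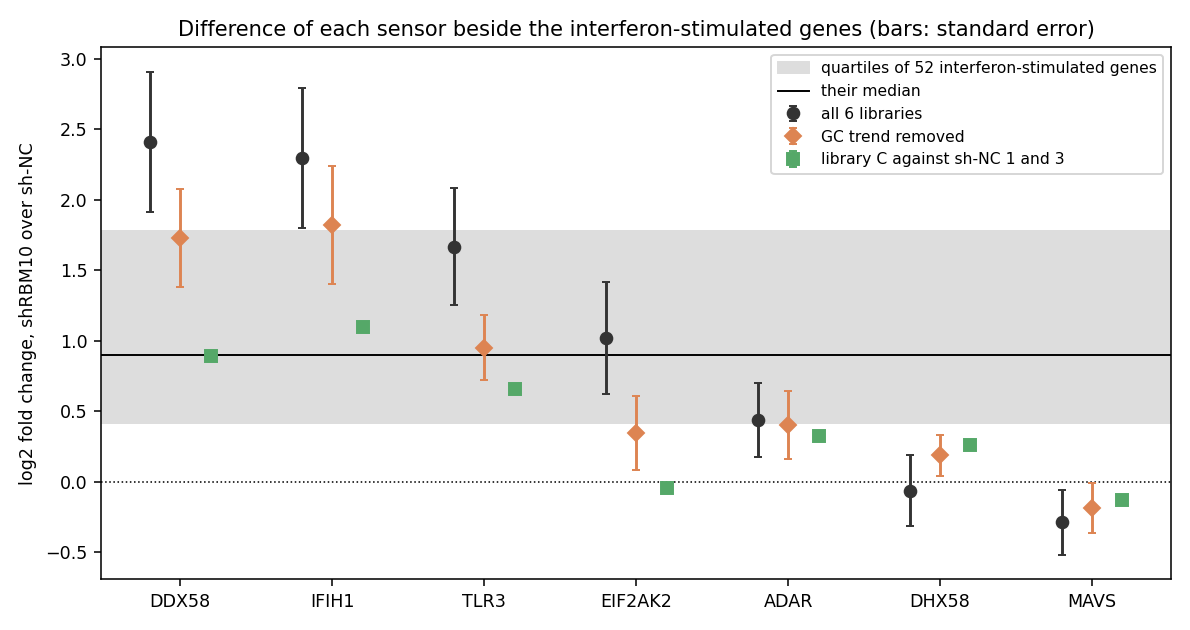
Log2 fold change of each sensor (vertical axis) with standard errors, from all 6 libraries (circles), with the GC trend removed (diamonds), and for library C beside sh-NC replicates 1 and 3 (squares, no error). The grey band holds the middle of the 52 interferon-stimulated genes in the fit of all 6 libraries, from 0.42 to 1.78. DDX58 and IFIH1 lay above it in that fit, and DHX58 and MAVS lay below it in all 3. With the GC trend removed the list's own quartiles, not drawn, were 0.48 and 1.37, and DDX58 (1.73) and IFIH1 (1.82) lay above both.

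Set against the list within each library, MDA5 and RIG-I lay further from sh-NC on average than the list did, and MAVS and LGP2 lay less far. The difference between a sensor and the list median, shRBM10 minus sh-NC, was 1.43 for IFIH1, −1.28 for MAVS and −1.05 for DHX58 (log2), and for each of these 3 the libraries of the groups did not overlap. Each gave p = 0.1 in the exact permutation test, the smallest p this design allows. Adjusted over the sensors by Benjamini-Hochberg, each p was 0.23. The list itself separated the groups, with medians from −0.11 to 0.14 in sh-NC and from 0.90 to 1.03 in shRBM10. A gene without any change would therefore separate on this measure too. For MAVS and DHX58 this test cannot tell a result of their own from the list's shift, with or without the GC trend. The share of all genes that separate in this way was not computed. DDX58, at 1.36, and TLR3, at 0.66, overlapped, with library C below sh-NC replicate 3 (p = 0.2 and 0.3, exact permutation). EIF2AK2 differed from the list by 0.08 (p = 0.8) and ADAR by −0.50 (p = 0.3), both by the exact permutation test. The differences with the GC trend removed were 1.10 for IFIH1, 0.88 for DDX58, 0.07 for TLR3, −0.40 for ADAR, −0.44 for EIF2AK2, −0.66 for DHX58 and −1.05 for MAVS, with unadjusted p between 0.1 and 1.0 by the exact permutation test, where 0.1 is the smallest it can give.

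In library C, whose GC trend was that of sh-NC replicates 1 and 3, the list stood 0.80 (log2) above these replicates, with 52 of 52 genes higher, while the median of all genes was 0.00. IFIH1 was 2.14-fold, DDX58 1.86-fold and TLR3 1.58-fold above their mean. ADAR was 1.25-fold and DHX58 1.20-fold above it, MAVS was at 0.91-fold and EIF2AK2 at 0.97-fold. In this pairing IFIH1, DDX58 and TLR3 were the highest, and EIF2AK2 was below ADAR and DHX58. These are values without a test, chosen after the GC trends had been seen, since the pair of control replicates was unusually alike (a chi-square of 2.93 for each degree of freedom, where all other pairs of libraries gave 29.7 or more).

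GC content also ordered the list itself. Its 30 genes with less GC than ADAR (49.3%) had a median log2 fold change of 1.72, where all such genes had 0.50, and its 22 genes at or above ADAR had 0.26, where all such genes had −0.27. ADAR, at 0.44, lay above the median of these GC-rich genes, and MAVS (−0.29) and DHX58 (−0.06) lay below their lower quartile of 0.16. The GC-poor list genes had quartiles of 1.19 and 2.11. DDX58 (2.41) and IFIH1 (2.30) lay above the upper one, TLR3 (1.67) just under the median and EIF2AK2 (1.02) below the lower one. With the GC trend removed the medians were 1.17 and 0.56, and the lower quartile of the GC-rich genes was 0.38, just under ADAR at 0.40 and above DHX58 at 0.19 and MAVS at −0.19. The quartiles of the GC-poor list genes were then 0.74 and 1.55. DDX58 (1.73) and IFIH1 (1.82) lay above both, TLR3 (0.95) lay between them and EIF2AK2 (0.35) lay below both.

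Levels per transcript length place the sensors in another order than their differences. The authors' TPM values, used for the sh-NC libraries and library A, gave ADAR 47.2, 14.1 and 49.5 TPM in sh-NC and 57.1 TPM in library A. MAVS had 33.7, 16.8 and 35.4 TPM and 30.9 TPM. ADAR and MAVS changed places in replicate 2 and did not differ beyond their spread. DHX58 came next with 12.3, 6.98 and 12.5 TPM in sh-NC, and EIF2AK2 had 9.14, 2.03 and 8.42 TPM. IFIH1 (3.51, 0.45 and 2.82 TPM) and DDX58 (3.23, 0.71 and 3.76 TPM) were not separable, and TLR3 was last with 0.54, 0.12 and 0.50 TPM. The abundant members in control cells were thus the editor and the adaptor, and the scarce ones were the receptors that were higher in shRBM10. In library A DDX58 reached 23.8, EIF2AK2 17.5, IFIH1 15.8 and TLR3 1.82 TPM, so that DDX58, EIF2AK2 and IFIH1 passed DHX58, at 10.7 TPM. This is 1 library, and its GC trend, 1.17, was the strongest of all. In library C, for which only CPM were used, DDX58 was at 21.0 CPM and DHX58 at 25.2 CPM.

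The transcript table resolved part of this. Of 31 RefSeq transcripts of the sensors 23 were tested, and 4 had an unadjusted p under 0.05 and a log2 fold change over 1, against 3.71% of 38286 transcripts. None passed after adjustment in edgeR, nor did any other transcript in the table. The 4 were NM_014314 of DDX58, NM_022168 of IFIH1, NM_003265 of TLR3 and NM_001135651 of EIF2AK2. NM_014314 held 98.9% of DDX58 counts in sh-NC and 94.5% in shRBM10 (means of 3), and the IFIH1 and TLR3 transcripts were the only ones listed for their genes. NM_001135651 had 404, 85 and 339 counts in the sh-NC libraries and 1116, 811 and 367 in libraries A, B and C, with a log2 fold change of 1.56 (SE 0.58, edgeR adjusted p = 0.522). It held 38.8% of EIF2AK2 counts in sh-NC and 54.1% in shRBM10, while XM_011532987 went from 31.4% to 22.4%. MAVS counts were 93.6% and 93.7% NM_020746, the full-length form, and NM_001385663 had 130, 88 and 192 counts against 71, 82 and 60 (log2 fold change −0.93, SE 0.35, edgeR adjusted p = 0.521). DHX58 counts were mostly XM_017025059, 85.9% and 92.3%. Transcript usage did not pass a Simes test for EIF2AK2, MAVS, DHX58 or ADAR (unadjusted p of 0.73, 0.46, 0.54 and 0.86), where 422 of 8348 genes had an unadjusted p under 0.05.

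ADAR has a form made from an interferon-inducible start, p150, which reaches the cytoplasm, and a constitutive nuclear form, p110. The p150 transcripts are NM_001111 (1226 residues in GENCODE), NM_015840 and NM_015841, which start at chr1:154608248 or just inside it. NM_015840 and NM_015841 were matched to the same GENCODE transcript, of 1200 residues, so a length of their own is not given for each. NM_001025107, at 931 residues, encodes p110 from a start further upstream, at chr1:154627980, and the scarce NM_001193495 codes for 931 residues as well. These 5 transcripts took 54.1% to 71.1% of ADAR counts per library. The p150 transcripts had 112, 57.8 and 110 CPM in sh-NC and 119, 101 and 142 CPM in shRBM10. The p110 transcripts had 42.2, 9.58 and 53.1 CPM against 50.8, 34.4 and 11.1 CPM. Neither form separated the groups (p = 0.4 for p150 and 0.8 for p110, exact permutation, two-sided). The share of p150 was 72.6%, 85.8% and 67.5% in sh-NC and 70.1%, 74.5% and 92.7% in shRBM10 (75.3% ± 9.46 against 79.1% ± 12.0, SD, n = 3 each, exact permutation p = 0.6). Library C, with the highest share, also had the highest p150 level, and the spread within each group exceeded the difference between them.

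The genes whose CPM tracked each sensor most closely over the 6 libraries were found among 11064 genes with a mean of at least 50 counts, by Pearson's r of log2 values. For IFIH1 they were ITGB6, IFIT3 and GBP3 (r of 0.998 to 0.999), and 2 of these 3 are interferon-inducible. For DDX58 they were RETREG1, DNAJC25 and GOLGA5, for TLR3 GORAB, PPP1R3B and GOLM2, and for EIF2AK2 BTBD7, EFR3A and RICTOR. EIF2AK2 had the most company, with 1439 genes above an r of 0.95, where DDX58 had 835, TLR3 833, IFIH1 622, ADAR 168, DHX58 53 and MAVS 15. PPP1R3D, SLC6A6 and KAZN were nearest to ADAR, GRTP1, LRPAP1 and MAN1B1 to DHX58, and STARD7, HBEGF and C17orf113 to MAVS. All points share the same 6 libraries with their GC trends.

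Around the cytoplasmic receptors, 38 regulators, kinases and transcription factors of the RIG-I pathway were listed and 37 tested. Their median log2 fold change was 0.17, and 0.07 with the GC trend removed. At an unadjusted p under 0.05 and beyond the fold limit 5 were higher and 1 lower, beside 10.1% and 1.53% of all genes, and none after adjustment in edgeR. None was higher once the GC trend was removed, beside 2.43% of all genes. The 5 were the kinases RIOK3, TBK1 and CHUK, the deubiquitinase CYLD and the TBK1 adaptor TANK. TBK1, which phosphorylates IRF3 below MAVS, had 249, 59 and 197 counts in the sh-NC libraries and 405, 492 and 242 after knockdown (log2 fold change 1.20, SE 0.42), but 0.57 with the GC trend removed, and none of the 5 kept the fold limit on that scale. The lower gene was RNF125, a ubiquitin ligase that marks RIG-I for degradation, with 20, 17 and 28 counts against 8, 10 and 9 (log2 fold change −1.32, SE 0.35, edgeR adjusted p = 0.151, and −1.85 with the GC trend removed). TRIM25, a ubiquitin ligase linked to RIG-I activation, had a log2 fold change of −0.52 (SE 0.23), IRF3 −0.43 (SE 0.25), IKBKE 0.42 (SE 0.25) and IRF7, itself interferon-inducible, 0.25 (SE 0.29). These were −0.46, −0.16, 0.68 and 0.61 with the GC trend removed. PRKRA, an activator of PKR and RIG-I, was at 0.02 (SE 0.22), but −0.65 with the GC trend removed.

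Other proteins that bind double-stranded RNA spanned a wide range. Of 25 tested, 7 met the unadjusted rule in the higher direction (10.1% of all genes did) and 0 in the lower (1.53%). It was met by 3 with the GC trend removed, beside 2.43% of all genes. The median was 0.78, or 0.49 with the trend removed. OAS2, an oligoadenylate synthetase, had 1075, 690 and 1045 counts in the sh-NC libraries and 2440, 2662 and 2659 in A, B and C (log2 fold change 1.41, SE 0.20, edgeR adjusted p = 0.086), and 1.24 with the GC trend removed. OAS1 was at 0.78 (SE 0.31) and OAS3 at 0.78 (SE 0.28). DDX60, an interferon-inducible helicase, was at 2.01 (SE 0.49), DHX9 at 1.65 (SE 0.46), DDX1 at 1.40 (SE 0.39) and STAU2 at 1.33 (SE 0.36), and with the GC trend removed these were 1.34, 1.17, 0.96 and 0.54. For DHX9 the groups overlapped in CPM, at 43.2, 23.3 and 39.0 in sh-NC against 163, 128 and 40.9 in A, B and C. OAS2, DDX60 and the OAS genes are also in the interferon-stimulated list.

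Around PKR, a list of eIF2 and eIF2B subunits, other eIF2 kinases and stress-response genes mostly had log2 fold changes below 0. Of 21 tested, 8 had a log2 fold change above 0, beside 6514 of all 12620 genes. The median was −0.24, or −0.33 with the GC trend removed. The unadjusted rule counted 2 higher (EIF2AK3, the kinase PERK, and DNAJC3, an inhibitor of these kinases) and 0 lower, beside 10.1% and 1.53% of all genes, and 1 higher with the GC trend removed, beside 2.43%. None of the genes named next met the rule. TRIB3 had 16843, 12541 and 16835 counts in the sh-NC libraries and 7099, 8597 and 11256 in the knockdown libraries (log2 fold change −0.86, SE 0.26), and SESN2 was at −0.90 (SE 0.25), ATF3 at −0.78 (SE 0.25) and PPP1R15A at −0.63 (SE 0.21). TRIB3 was at −0.56, SESN2 at −0.65, ATF3 at −0.96 and PPP1R15A at −0.35 with the GC trend removed. The transcription factor ATF4 was at −0.59 (SE 0.32), or −0.35 with the trend removed, DDIT3 at −0.24 (SE 0.31) and EIF2S1, which encodes the substrate of PKR, at 0.12 (SE 0.30), but −0.62 with the GC trend removed. RNA levels do not measure the phosphorylation through which PKR acts.

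Around TLR3, 12 of the 17 listed genes in the table were tested, with a median of 0.67, or 0.21 with the GC trend removed. TICAM1, its adaptor, had 252, 130 and 263 counts against 164, 200 and 275 (log2 fold change −0.05, SE 0.29), and UNC93B1, which carries the receptor to endosomes, was at −0.31 (SE 0.25). Both were above 0 with the GC trend removed, at 0.25 and 0.03. The unadjusted rule counted 4 higher, TLR5 (1.82, SE 0.36), TLR1 (1.79, SE 0.42), TLR6 (1.19, SE 0.46) and the chaperone HSP90B1 (1.10, SE 0.40), and 0 lower, beside 10.1% and 1.53% of all genes. The values with the GC trend removed were 1.43 for TLR5, 1.07 for TLR1, 0.65 for TLR6 and 0.52 for HSP90B1, and 2 met the rule, beside 2.43% of all genes. Of the other receptors, TLR4 had 28, 3 and 28 counts against 45, 37 and 7, and TLR2, TLR7, TLR9 and TLR10 were too scarce to test.

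At the output end, 9 of 11 interferon and cytokine genes in the table were tested. In the main fit all 9 had a log2 fold change above 0, beside 6514 of all 12620 genes (median 0.48, and 0.64 with the GC trend removed). With the trend removed IFNB1 (−0.06) and IL6 (−0.10) were below 0. CXCL10 had 35, 48 and 36 counts in the sh-NC libraries and 154, 175 and 125 in libraries A, B and C (log2 fold change 1.80, SE 0.37, edgeR adjusted p = 0.118), and CXCL11 had 18, 19 and 24 against 90, 86 and 59 (1.86, SE 0.35, edgeR adjusted p = 0.10). These chemokines were the 2 that met the unadjusted rule, beside 10.1% of all genes. Both had smaller changes with the GC trend removed, 1.08 and 1.07, and met it there too, beside 2.43%. IFNB1, the interferon that RIG-I and MDA5 signaling induces first, had 69, 107 and 69 counts against 129, 128 and 122 (0.47, SE 0.38), and −0.06 with the GC trend removed. In CPM its groups overlapped, at 3.41, 7.97 and 3.39 in sh-NC against 7.21, 6.67 and 6.38 in A, B and C. The highest value was that of sh-NC replicate 2. IFNL2 and IFNL3, near-identical genes whose reads may be split between them, were at 0.63 (SE 0.29) and 0.66 (SE 0.30), and 0.90 and 0.94 with the GC trend removed.

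The genes of the interferon list with the smallest p were IFI44 (log2 fold change 2.02, SE 0.27), OAS2, IFIT1 (2.13, SE 0.34), IFIT2 (2.59, SE 0.42), CMPK2 (1.76, SE 0.30) and RSAD2 (3.11, SE 0.54), with edgeR adjusted p between 0.086 and 0.090. Of the list, 25 of 52 met the unadjusted rule, and 20 with the GC trend removed, against 10.1% and 2.43% of all genes. DDX58 and IFIH1 had log2 fold changes between those of IFIT1 and IFIT2. The list's lowest genes were PSMB9 (0.00, SE 0.31) and IFITM2 (−0.20, SE 0.36). DHX58 (−0.06) lay between these and MAVS (−0.29) below both.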

How the data were processed

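RNA-seq was done by BGI-Tech on 3 sh-NC and 3 shRBM10 samples of PC9 cells. The authors deposited estimated counts per gene (16306 genes) and per transcript (76563 RefSeq transcripts), along with FPKM, TPM and normalized counts; 87.5% and 41.1% of the estimated counts are whole numbers. The aligner, the counting tool and the annotation are not given in the sources used here, and the submitters' processing notes name the build hg38. The deposited TPM values were used for the sh-NC libraries and shRBM10 library A alone, and 14 per-library columns of the gene table and 18 of the transcript table were not used.

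The members and gene lists were chosen with earlier results of these data known. Estimated counts were rounded, filtered by filterByExpr and TMM-scaled. The quasi-likelihood test of edgeR 4.0.16 (R 4.3.3, with limma 3.58.1) was run with Benjamini-Hochberg adjustment over all 12620 genes or 38286 transcripts. The standard error is the log2 fold change divided by the square root of F. A gene was called where the adjusted p was under 0.05 and the log2 fold change was beyond 1 in size; the unadjusted rule puts the limit of 0.05 on the raw p instead. Transcript usage was tested with diffSpliceDGE. GC content (GENCODE 29, longest transcript, 97.8% of genes tested) was removed as a loess trend per library (span 0.5) entered as an offset. Levels per library used log2(CPM + 0.1). Single values were compared by two-sided exact permutation. The fitting code was tested on simulated data. Genes named are the 7 sensors and RBM10, up to 6 genes with the smallest p per list, fixed role genes of each pathway, and the 3 genes most correlated with each sensor. UNC93B1, other Toll-like receptors, DNAJC3, IL6, PSMB9, IFITM2 and single sensor transcripts were named after their values were seen. DESeq2 1.42.0, limma-voom, other scalings and filters and leaving out each library were alternatives. Depth per library is in the text, and precision rests on 3 libraries per group.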

Additional observations from a re-analysis of the deposited data

How the results depend on the processing

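DDX58, IFIH1 and TLR3 were higher in shRBM10, ADAR was higher and MAVS lower under all 17 alternatives, with log2 fold changes of 0.89 to 2.70, 1.10 to 2.67, 0.66 to 1.87, 0.14 to 0.57 and −0.62 to −0.13. edgeR called 0 of 7 sensors under other scalings, other filters and without any single library, as did limma-voom. DESeq2 called 3, and the fit with GC trends removed and without sh-NC replicate 2 called 2. Sensors past the unadjusted rule numbered 4 in the main fit, and 3 under DESeq2, RLE scaling and library size only. EIF2AK2 was at 0.99 under DESeq2 and under RLE scaling. The number was between 3 and 4 without 1 library. It was 2 with GC trends removed, 2 with GC and length trends removed and 2 with GC trends removed and without sh-NC replicate 2. Without sh-NC replicate 2, without library A or without library B the sensor lost from the 4 was EIF2AK2. The sign of DHX58 turned under library size only (0.068), GC content (0.19), GC content and length (0.28), GC content without sh-NC replicate 2 (0.21) and library C against sh-NC replicates 1 and 3 (0.26), and ran from −0.26 to 0.035 without 1 library, positive without library A. EIF2AK2 was at −0.047 in library C against sh-NC replicates 1 and 3. The median of the interferon-stimulated list was 1.05 under library size only and 0.90 to 1.03 without 1 library. Sensor transcripts past the unadjusted rule numbered 4, 7 without a filter on low counts and 3 to 5 without 1 library. The cause of these shifts was not tested. GC and length trends together, GC without sh-NC replicate 2, and library C against sh-NC replicates 1 and 3 were added after seeing the data. No paired analysis was possible because shRBM10 libraries B and C carry no replicate number that the labels give. TLR3 had the fewest counts of the sensors, 14 to 138 per library.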
